A study of Mus musculus with 35 samples.

Results

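The regions described here are open-chromatin regions of mouse hepatocytes that lie in rodent short interspersed elements (SINEs). They are the rows of the authors' merged region table whose repeat annotation names the SINE family Alu, B2 or B4. Of the 177904 regions in the table, 12638 (7.10%) met this rule: 3317 in the Alu family (the mouse B1 elements and their relatives), 4105 in B2 and 5216 in B4. No measured value entered the choice. The assay was ATAC-seq, in which a transposase cuts accessible DNA, and each value is the number of sequencing tags in 400 bp around the centre of a peak, scaled by the authors to a library of 10 M tags (M, 1e6). These values are called scaled tags.

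All mice carried the CAG-Sun1/sfGFP transgene together with Albumin-Cre, so that hepatocyte nuclei have a fluorescent tag on the nuclear envelope and were captured on beads from liver collected at zeitgeber time (ZT) 9. Albumin-Cre is active in hepatocytes, and bile duct cells can share the recombined allele from their common precursors. In the C26 cohort (BALB/c mice) 4 libraries came from PBS-injected controls, 4 from tumor-bearing mice before cachexia and 4 from mice with cachexia, defined by more than 10% loss of body weight. In the 8025 cohort (C57BL/6N) 3 libraries were PBS controls and 4 were from mice with cachexia. The NC26 cohort (BALB/c) and the MC38 cohort (C57BL/6N) compared 4 PBS controls with 4 mice bearing a tumor that left body weight stable. Strain is therefore tied to the tumor line in every cohort and cannot be told apart from it. The 35 libraries came from 9 groups, and each came from its own animal. Library names fall into a series A (all of C26, and replicates 1 and 2 of NC26 and MC38) and a series B (all of 8025, and replicates 3 and 4 of NC26 and MC38), so each cachexia comparison lies within 1 series.

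SINEs are short repeats that spread through the genome by copying RNA made by RNA polymerase III and borrow the machinery of L1 elements to insert. B1 descends from 7SL RNA and B2 from a transfer RNA, and B4 joins a tRNA-derived part to a B1-related part. Most copies are kept silent by DNA methylation and by histone marks. B2 copies in rodents are known to carry many binding sites of CTCF, the factor that anchors chromatin loops, and some SINE copies serve as enhancers for nearby genes.

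Sequence could be read for the few members that reach the RefSeq promoter windows of 300 bases. Of the 12638 members, 39 shared at least 100 bp with such a window of GRCm38.p6, and 22 had their centre inside one. A set of 4 of these 22 is printed. In each family it holds the copy of highest mean level, and the highest with a motif marked in capitals where there was one. The mean levels of the printed copies were 81, 52.8, 14.2 and 36.5 scaled tags in printed order, above the members' median of 7.02. They were chosen after their values had been seen. Each printed stretch is the part of a member's 400 bp region that lies inside the window. The borders of the repeat within it are not known here, so bases beside the repeat can be included. Each reads 5′ to 3′ along the strand of the gene whose window holds it, and the name in front is that of the nearest gene in the authors' annotation. Capitals mark a CTCF core motif in the stretch printed for the B3 copy and a pair of nuclear receptor motifs in that for the B4 copy. The other sequences hold no capitals.
Gpi1 B1F1: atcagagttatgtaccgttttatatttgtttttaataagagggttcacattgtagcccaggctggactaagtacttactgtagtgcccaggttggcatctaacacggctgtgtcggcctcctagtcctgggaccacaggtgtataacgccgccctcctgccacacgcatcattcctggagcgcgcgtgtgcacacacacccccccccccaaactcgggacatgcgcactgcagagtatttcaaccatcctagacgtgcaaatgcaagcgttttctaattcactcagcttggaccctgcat
Pex14 B2_Mm2: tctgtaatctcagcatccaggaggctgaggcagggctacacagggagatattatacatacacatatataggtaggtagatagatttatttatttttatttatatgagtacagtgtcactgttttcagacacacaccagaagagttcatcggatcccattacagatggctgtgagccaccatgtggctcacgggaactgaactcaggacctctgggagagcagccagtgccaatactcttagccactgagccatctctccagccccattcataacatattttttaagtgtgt
Nrbf2 B3: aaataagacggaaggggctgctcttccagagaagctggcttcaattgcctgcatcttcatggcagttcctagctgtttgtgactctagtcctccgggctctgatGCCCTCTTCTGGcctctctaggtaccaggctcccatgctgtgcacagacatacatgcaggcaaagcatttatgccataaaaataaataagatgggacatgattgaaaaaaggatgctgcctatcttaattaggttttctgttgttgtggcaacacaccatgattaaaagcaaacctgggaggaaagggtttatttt
Anp32a B4: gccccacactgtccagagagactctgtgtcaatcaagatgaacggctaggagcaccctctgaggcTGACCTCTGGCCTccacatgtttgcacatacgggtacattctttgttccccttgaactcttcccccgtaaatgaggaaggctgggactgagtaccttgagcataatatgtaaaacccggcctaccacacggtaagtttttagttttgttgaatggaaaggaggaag
The B1F1 copy of Gpi1 (glucose-6-phosphate isomerase) is printed from chr7:34234274-34234573, minus strand, in the window of Gm12762. The 300 printed bases hold 13 CpG sites and 51.7% G or C. The B2_Mm2 copy of Pex14, a peroxisome import factor, is printed from chr4:149097746-149098036, plus strand, in the window of Gm46722. The 291 printed bases hold 2 CpG sites. The B3 copy of Nrbf2 is printed from chr10:67311383-67311682, plus strand, in the window of Gm46229, with GCCCTCTTCTGG at printed bases 105 to 116. The B4 copy of Anp32a is printed from chr9:62380515-62380745, plus strand, in the window of Gm40522, with TGACCTCTGGCCT at printed bases 66 to 78.

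The motif letters were searched on both strands. The CTCF core (CCA, AG and GGC, each 2 free bases apart) was present in 6 of the 23 windows that hold the centre of a member, and in 797 of all 32851 promoter windows (2.43%). Of those 6, 5 windows belong to B2 family copies, near Nrbf2, Phb, D830013O20Rik, Cd80 and Fnip2, and the other to an ID_B1 copy near Klhdc4. The nuclear receptor pair (AGGNCA repeated after 1 free base) was present in 3 of 23 windows, all of B4 family copies (near Foxa1, Prkd3 and Anp32a), and in 0.381% of all windows. The Pol III B box GTTCNANNC was present in 2 of 23 windows, against 9.32% of all. The motifs marked in capitals come from a longer list. AP-1, STAT and C/EBP sites were in 3 of 23 windows each (7.81%, 8.3% and 10.8% of all). The D box was in 2 (6%) and the HNF1 site in 1 (0.0609%). The ROR element, the receptor pair at spacing 2 and the glucocorticoid receptor element were in 0 (2.61%, 0.247% and 0.475%). A match describes letters only, and the windows were picked by an annotated gene start, so they need not stand for the other members.

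The printed copies differed in their levels. At the Gpi1 copy the BALB/c PBS libraries had 48.5 to 64.7 scaled tags (median 52.5) and the C57BL/6N PBS libraries 87.6 to 123 (median 96.5). The strains did not overlap there, and the log2 difference was -0.77 (SE 0.10, limma adjusted p = 1.9e-08). C26 cachexia libraries had 70.3 to 73.2, all above the 4 C26 PBS libraries (48.5 to 64.7), with a log2 difference of 0.34 (SE 0.12, adjusted p = 0.04). The Anp32a copy fell in 8025 cachexia, from 28.9 to 42.2 scaled tags in PBS to 15.8 to 29.3, with overlap at the edge of the ranges (log2 -0.63, SE 0.19, adjusted p = 0.024). The Nrbf2 copy, whose printed stretch holds the CTCF core, had 9.18 to 22.3 in C26 PBS and 10.3 to 14.3 in cachexia. It did not pass the limma test (log2 -0.20, adjusted p = 0.61). The Pex14 copy had 38.4 to 64.4 and 33.6 to 48.3 (log2 -0.46, adjusted p = 0.052).

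Members were found in introns (8048) or between genes (4590) and lay a median of 17.5 kb from the nearest gene start, against 15.1 kb for all regions. Their levels were low. The median of a member's mean level over the libraries was 7.02 scaled tags, against 10.9 for all regions and 9.62 for intronic and intergenic regions outside repeats. B4 copies were the most open by this median (8.30) and B2 copies the least (5.71), with Alu copies at 7.65. Above 50 scaled tags lay 506 members (4%), against 14.2% of all regions. A peak was called in only 1 library for 3460 members (27.4%, against 21.6% of all regions) and in every library for 927 (7.34%, against 17.1%). The share with a peak in every library was 3.46% in B2, 7.18% in Alu and 10.5% in B4. Another region of the table overlaps 27% of the members, so such members share tags with it.

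Among subfamilies, the B2 family was mostly B3 (2135 members) and B3A (1217), which are old relatives of B2, followed by B2_Mm2 (660). The young B2_Mm1t and B2_Mm1a gave 67 and 26 members, and 43.3% of the B2_Mm1t members had a peak in only 1 library. The B4 family held RSINE1 (1837), ID_B1 (1594), B4A (1168) and B4 itself (617). The Alu family was split over many subfamilies, the most frequent being PB1D10 (426), B1F (348), B1_Mur1 (338), B1_Mus1 (305) and B1_Mur4 (304), while B1_Mm, the youngest of the B1 group, had 58. Whether reads that map to more than 1 copy were kept is not given in the sources used here. Its part in the low counts of young copies was not tested.

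The most open copies kept high levels in both strains. A B4A copy 98.0 kb from Errfi1, a feedback inhibitor of the EGF receptor, had 164 to 259 scaled tags in C26 PBS, 172 to 252 in NC26 PBS, 216 to 252 in 8025 PBS and 218 to 312 in MC38 PBS. A B1_Mur1 copy 12.3 kb from Apoa5, an apolipoprotein of triglyceride transport, had 120 to 178, 122 to 186, 164 to 194 and 153 to 257 in the same groups. Neither passed the test in any comparison. A B3A copy nearest to Gm17634 had 116 to 169 in C26 PBS and 88.5 to 112 in C26 cachexia, without overlap (log2 -0.47, adjusted p = 0.001).

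The libraries held 11.3 to 23.8 M tags, with NC26 tumor replicate 1 as the exception at 3.47 M. Between 37.3 and 62.9% of a library lay in the regions. Promoter values of hepatocyte markers summed to 568 to 1020 scaled tags per library over 5 of 6 listed genes (Alb, Apoa1, Hnf4a, Cps1 and Fgb). No promoter region was found for any of 5 lymphocyte markers, and the macrophage list had 1 of 5, Adgre1, at 0 to 8.91. The bile duct list (3 of 5 markers, mostly Sox9) summed to 37.7 to 67.2 in C26 PBS and 72.6 to 82.6 in C26 cachexia, and to 65.9 to 93.1 and 92.1 to 120 in the 8025 cohort. The neutrophil list (2 of 5, Elane and S100a8) summed to 28.2 to 48.1 in C26 PBS, 49.5 to 63.1 before cachexia and 52.8 to 57.7 in cachexia, and to 38.3 to 42.4 and 46.7 to 73.6 in 8025 PBS and cachexia. The stellate cell list (3 of 5) summed to 66.1 to 84.1 in 8025 PBS and 42.5 to 59.9 in cachexia, with overlap in the C26 cohort (39.5 to 72.7 and 41.1 to 57.2). The endothelium list (1 of 5) had 7.97 to 10.2 in C26 PBS and 10.3 to 14.8 in cachexia, with overlap in the 8025 cohort (4.99 to 9.26 and 7.37 to 11.2). The part of other cell types in the results below was not tested.

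In C26 cachexia, SINE regions closed more often than they opened. Of 12589 members with enough tags to be tested (49 were not), 550 were higher and 987 lower than in PBS at a limma adjusted p under 0.05 (Benjamini-Hochberg over all regions). Together these are 12.2% of the tested members, below the 14% called among all regions in this comparison (6.91% higher and 7.13% lower). Of the members called, 35.8% were higher, against 49.2% of all regions called and 49% of called intronic and intergenic regions outside repeats. The median log2 difference was -0.10 over members and -0.01 over all regions. Other mobile elements had similar splits: 30.0% of called ERVK regions (long terminal repeats of endogenous retroviruses) and 33.2% of called L1 regions were higher. The ancient MIR elements, which are SINEs shared by mammals and no members here, had 48.7%.

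The families differed in how many copies were called. In B2, 78 copies were higher and 201 lower (6.84% of those tested), in Alu 135 and 334 (14.2%), and in B4 337 and 452 (15.2%). Lower calls outnumbered higher ones in each of these subfamilies: B1_Mur1 11 higher and 43 lower, B1_Mus1 12 and 33, PB1D10 21 and 46, B2_Mm2 6 and 32, B3 38 and 93, B3A 32 and 70, RSINE1 104 and 178. The split was closest to even in ID_B1 (107 and 130), B4A (83 and 100) and B4 (43 and 44). In 8025 cachexia 592 members were higher and 723 lower (10.4%, against 12.4% of all regions, 6.99% higher and 5.38% lower), and 45% of the called members were higher, against 56.5% of all called regions. This order depends on scaling: with the authors' library totals alone, 543 were higher and 458 lower. Fitted on the 8025 groups only, 735 were higher and 718 lower.

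**Figure D1:**
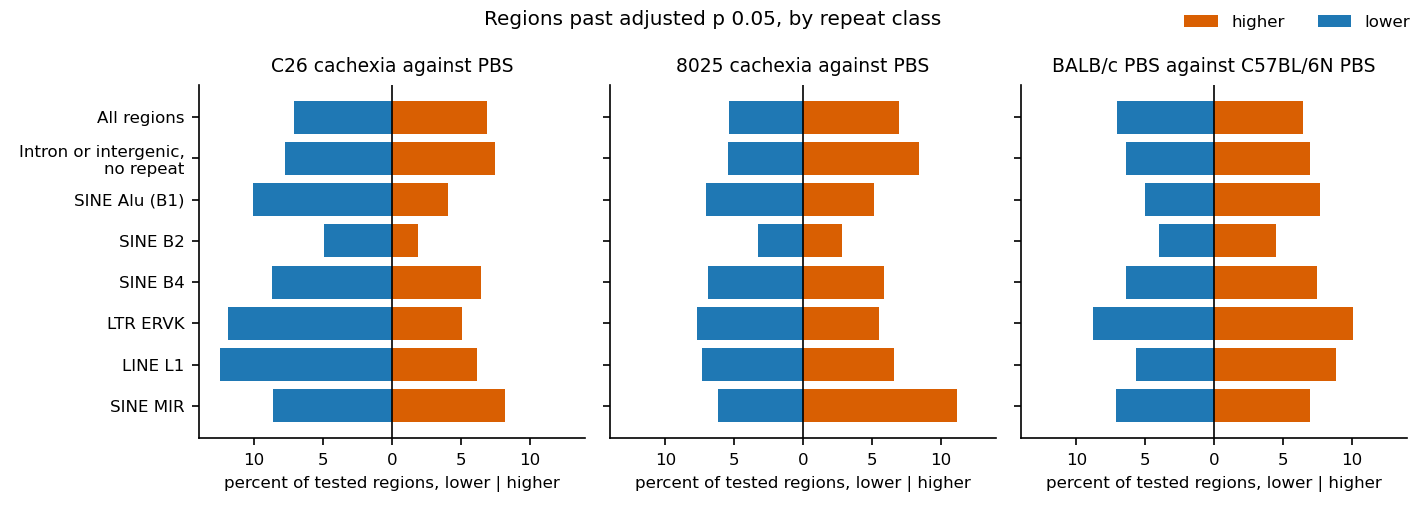
Percent of tested regions higher (right) and lower (left) at a limma adjusted p under 0.05, by region class, for C26 cachexia against PBS, 8025 cachexia against PBS, and BALB/c against C57BL/6N PBS mice. In C26 cachexia the Alu and B2 bars reach farther to the left than to the right, and the B2 bars are the shortest in both cachexia panels (6.84% and 6.05% of copies called).

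By family, 8025 cachexia gave 171 higher and 232 lower Alu copies (12.2% called), 114 and 133 B2 copies (6.05%) and 307 and 358 B4 copies (12.8%). B2 copies thus had the fewest calls in both models. They also had the lowest median level of the families. At each level compared, in both models, their share called was below those of Alu, B4 and regions outside repeats. The part of level in the few B2 calls was not tested. In C26 cachexia, among members with a mean under 5 scaled tags 6.96% of Alu, 3.4% of B2 and 5.48% of B4 copies were called, against 6.08% of regions outside repeats at that level. Between 20 and 50 scaled tags these shares were 24.8%, 22.1%, 25.6% and 25.3%. Between 5 and 20 the B2 shares (5.23% and 11.5%) were below the others, which were 10.9 to 12.7% and 17.8 to 21.1%. The direction of the calls went with the level in 8025 cachexia. There 151 weakly open members (mean under 5) were higher and 49 lower, while 33 members above 50 scaled tags were higher and 83 lower. In C26 cachexia the split ran the other way: 59 and 151 under 5, and 66 and 61 above 50. Intronic and intergenic regions outside repeats had the same turns with level: 1630 higher and 246 lower under 5 and 831 and 1373 above 50 in 8025 cachexia, and 566 and 886, then 1533 and 1050, in C26 cachexia.

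**Figure D2:**
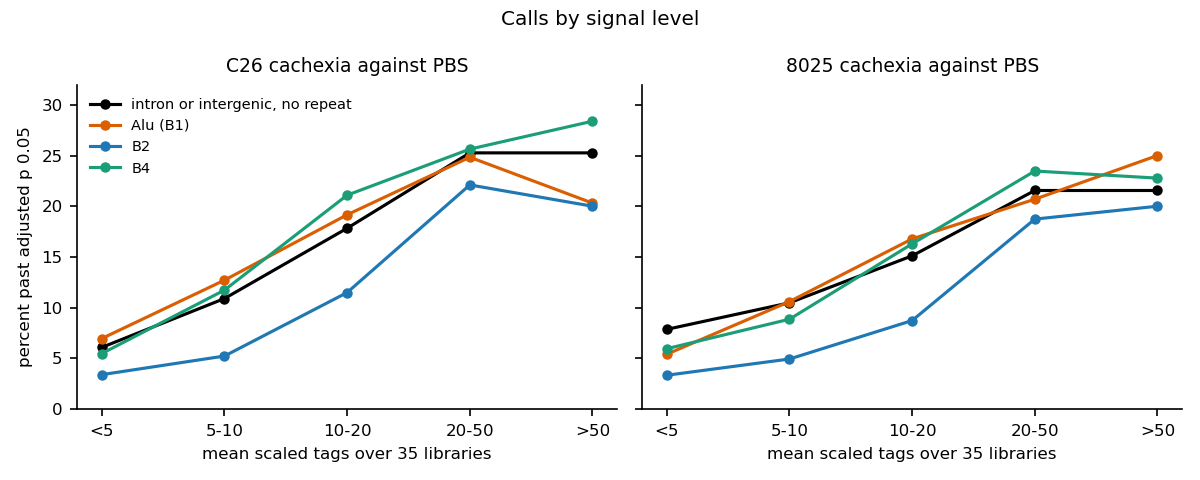
Percent of tested regions past an adjusted p of 0.05 in either direction, by mean level in scaled tags, for Alu, B2 and B4 copies and for intronic and intergenic regions outside repeats, in C26 and 8025 cachexia. In every class the percent rises from the lowest level to between 20 and 50 scaled tags, and the B2 line runs lowest at each level.

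The summed level of the copies, as a share of the tags that fell in regions, was lower in C26 cachexia. Alu copies held 0.931 to 0.972% of these tags in the 4 PBS libraries, 0.881 to 0.963% before cachexia and 0.85 to 0.891% in cachexia. PBS and cachexia did not overlap, and the means were 0.953% ± 0.0209 and 0.871% ± 0.0171 (SD, n = 4), a change of -8.63%. B2 copies held 0.796 to 0.852% in PBS and 0.702 to 0.758% in cachexia, a change of -10.3%, again without overlap. B4 copies held 1.64 to 1.72% and 1.56 to 1.64%, a change of -4.39%. All members together held 3.4 to 3.52% in PBS and 3.11 to 3.28% in cachexia (-6.97%). Other repeat classes fell as well. ERVK regions held 1.18 to 1.24% in PBS and 1.07 to 1.12% in cachexia. L1 regions held 1.21 to 1.27% and 1.15 to 1.18%, so the fall was not particular to SINE copies. The promoter share was 33.5 to 34.6% in PBS and 35.1 to 35.9% in cachexia, so part of a share can move because another class does. Set against all tags of the library, the change over all members was -0.941%, and that of B4 copies 1.72%.

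In the other cohorts the shares overlapped between groups. All members held 3.31 to 3.44% in the 3 8025 PBS libraries and 3.1 to 3.36% in the 4 cachexia libraries. B2 copies had means of 0.798% and 0.757%, and Alu copies 0.909% and 0.877%. The mean over all members was 3.48% in NC26 PBS and 3.47% in NC26 tumor mice, and 3.29% and 3.34% in the MC38 cohort.

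**Figure D3:**
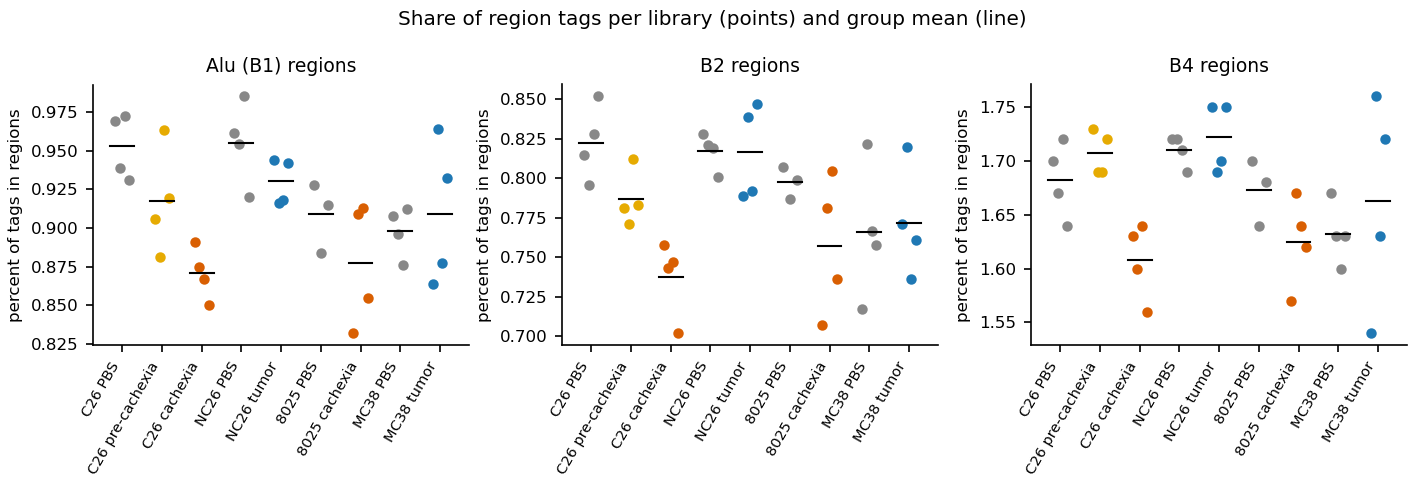
Percent of the tags in regions that fell in Alu, B2 and B4 copies, 1 point per library and a black line at each group mean, for the 9 groups. The C26 cachexia points for Alu (0.85 to 0.891%) and B2 (0.702 to 0.758%) lie below all C26 PBS points.

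Part of the calls were shared between the cachexia models. Of the 550 members higher in C26 cachexia, 229 (41.6%) were also higher in 8025 cachexia, which is 38.7% of the 592 called there. Of the 987 lower, 367 (37.2%) were also lower in the 8025 model (50.8% of its 723). No member was called in opposite directions. This was rare among all regions too: 5 of the 12251 higher and 20 of the 12634 lower in C26 cachexia went the other way in 8025 cachexia. Over all regions the shares were 45.8% and 45.3% for higher and 37.2% and 49.2% for lower calls, so the members' shares were near those of all regions. The models have separate controls, but differ in strain, tumor line and library series.

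Copies named below for the largest rises and falls against PBS were picked among those whose compared groups did not overlap. Lack of overlap between those groups was thus set by the choice. Alu copies with the largest changes included a B1_Mur1 copy 21.5 kb from Lrig2, a membrane protein that modulates growth factor receptors (chr3:104533200-104533600, intergenic). It had 5.98, 6.37, 4.95 and 3.62 scaled tags in C26 PBS, 19.8, 16.9, 31.4 and 11.9 before cachexia, and 35.6, 26.9, 29.2 and 48 in cachexia. Every tumor-bearing C26 library lay above every PBS library. It rose by 2.48 on the log2 scale in C26 cachexia (SE 0.29, limma adjusted p = 3.5e-08) and by 1.61 before cachexia (SE 0.29, adjusted p = 0.0012). In the 8025 cohort PBS libraries had 4.99, 12.0 and 16.2 and cachexia libraries 40.5, 60.3, 42.9 and 54.7, again without overlap (log2 2.13, SE 0.32, adjusted p = 4.8e-06). NC26 tumor libraries (5.76, 9.42, 21.2 and 15.9) overlapped their PBS controls (7.05, 8.4, 8.92 and 8.49), and the C26 effect exceeded the NC26 effect by 2.11 (SE 0.41, adjusted p = 0.0029). The difference between the 8025 and MC38 effects did not pass (1.32, adjusted p = 0.11).

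A B1_Mus1 copy 12.3 kb from Slc23a3, a relative of the vitamin C transporters, moved the other way (chr1:75121436-75121836, intergenic). It had 41.8, 35.4, 43 and 33.7 scaled tags in C26 PBS, 18.2, 22.6, 23.8 and 17.6 before cachexia, and 5.81, 3.95, 1.94 and 3.43 in cachexia. The 3 groups did not overlap, and the pre-cachexia libraries lay between the others. The fall in cachexia was -3.17 on the log2 scale (SE 0.27, adjusted p = 7.4e-12). In 8025 mice the copy went from 19.9, 31.7 and 27 to 2.96, 11.6, 4.63 and 6.98 (log2 -2, SE 0.29, adjusted p = 2.8e-06). Both falls exceeded those with a weight-stable tumor, by -2.64 against NC26 (adjusted p = 6.1e-05) and by -1.64 against MC38 (adjusted p = 0.018). The call against MC38 was lost without 8025 cachexia replicate 1 (adjusted p = 0.056), 8025 PBS replicate 2 (0.088) or MC38 tumor replicate 3 (0.057), within 0.0041 to 0.088 over its alternatives.

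Hadha encodes a subunit of the mitochondrial trifunctional protein, which carries out steps of fatty acid oxidation. An intronic B1_Mur3 copy 14.3 kb from its start (chr5:30140479-30140879) had 13.4, 10.2, 9.29 and 12.3 scaled tags in C26 PBS and 2.38, 0.0, 0.65 and 1.37 in cachexia. It fell by 2.76 on the log2 scale (SE 0.35, adjusted p = 1.1e-07). The 8025 libraries went from 6.23, 7.05 and 6.69 to 0.59, 0.48, 1.26 and 1.16 (log2 -2.07, SE 0.37, adjusted p = 9.9e-05). The groups were apart in both models.

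Fgl1 encodes a protein that the liver secretes in the acute phase response. An intronic B1F copy 3.25 kb from its start (chr8:41211701-41212101) had 2.13, 3.19, 0.62 and 2.17 scaled tags in C26 PBS, 12.1, 8.82, 13.5 and 10.2 before cachexia, and 11.3, 11.1, 15.9 and 16.1 in cachexia. It was open at about the same level in both tumor-bearing groups, with log2 rises of 2 (SE 0.33, adjusted p = 0.00031) and 2.31 (SE 0.33, adjusted p = 1.5e-06). It rose in 8025 cachexia as well, from 1.87, 4.23 and 4.12 to 10.7, 8.24, 12.4 and 11.6 (log2 1.40, SE 0.36, adjusted p = 0.0054), a call lost without PBS replicate 1 (adjusted p = 0.061, within 0.0016 to 0.061 over its alternatives). The differences in NC26 and MC38 mice did not pass (log2 1.22, adjusted p = 0.12, and 1.23, adjusted p = 0.25).

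Other Alu copies had large rises as well. A PB1D7 copy in an intron near Omp (chr7:98146430-98146830, overlapping another region) had 16.2, 18.2, 21.7 and 14.8 scaled tags in C26 PBS and 92.7, 83.4, 124 and 110 in cachexia. It rose by 2.41 on the log2 scale (SE 0.22, adjusted p = 1.3e-09) and also in NC26 tumor mice (1.53, adjusted p = 0.00046). A B1F2 copy near Prdx1, an antioxidant enzyme, rose in 8025 cachexia from 9.97, 4.94 and 10.3 to 33.1, 35.6, 71.2 and 33.8 (log2 2.17, SE 0.38, adjusted p = 9.7e-05). A B1_Mur2 copy 2.1 kb from Car3, a carbonic anhydrase of liver and muscle, had 53.6, 54.3 and 56.1 in 8025 PBS and 14.8, 4.6, 5.26 and 12.2 in cachexia (log2 -2.64, SE 0.77, adjusted p = 0.023). The groups did not overlap, but the call was lost without any 1 of 5 libraries: 8025 PBS replicates 1, 2 or 4 (adjusted p = 0.069, 0.075 and 0.058), or cachexia replicates 2 or 3 (0.066 and 0.065). Over its alternatives the adjusted p was 0.0079 to 0.11.

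The B2 family held the 1 member that passed the test in all 4 cohorts. It is a B3 copy in an intron, 14.1 kb from the start of Prune1, a phosphodiesterase (chr3:95267763-95268163), and it overlaps a second region that is no member. It had 11.5, 20.4, 17.3 and 13.0 scaled tags in C26 PBS, 66.2, 45.1, 31.9 and 49.4 before cachexia, and 82.4, 76.3, 68.0 and 73.0 in cachexia. In 8025 mice it had 32.4, 21.1 and 37.0 in PBS and 142, 130, 184 and 130 in cachexia. NC26 mice had 13.3, 9.8, 12.2 and 20.6 in PBS and 57.6, 26.5, 43 and 95.2 with tumor. MC38 mice had 45.8, 12.3, 22.4 and 18.5 in PBS and 53.4, 86.3, 108 and 77.1 with tumor. All tumor-bearing libraries lay above all PBS libraries of their cohort, and this held within each library series.

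The log2 rises at this Prune1 copy were 1.46 before cachexia (SE 0.24, adjusted p = 0.00055), 2.18 in C26 cachexia (SE 0.24, adjusted p = 3.5e-08), 2.21 in 8025 cachexia (SE 0.26, adjusted p = 2.1e-07), 1.71 in NC26 (SE 0.24, adjusted p = 0.0003) and 1.73 in MC38 (SE 0.24, adjusted p = 0.00087). None of the 3 tested differences between cohorts passed: 0.46 for C26 less NC26 (adjusted p = 0.56), 0.48 for 8025 less MC38 (0.62) and -0.04 for C26 less 8025 (0.99). Of all 177251 regions tested, 5 were higher in all 4 cohorts, and another of these is also nearest to Prune1 (chr3:95267959-95268359). It is the overlapping region that is no member, so both count the same tags in part. The part of each in the rise cannot be told apart.

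**Figure D4:**
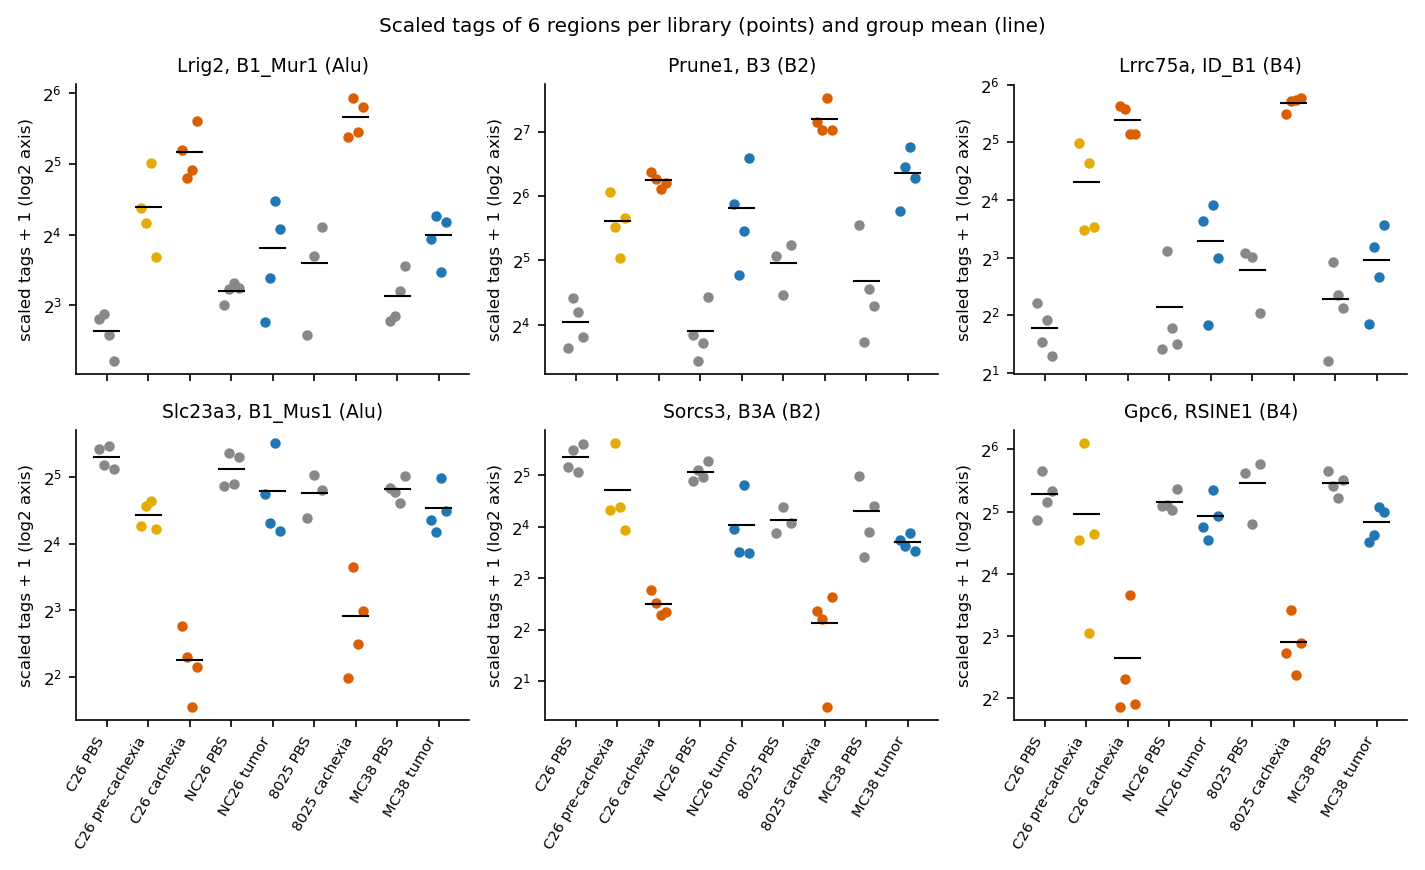
Scaled tags plus 1 on a log2 axis at 6 members, 1 point per library and a black line at the group mean, in the 9 groups: the copies near Lrig2, Prune1, Lrrc75a, Slc23a3, Sorcs3 and Gpc6. The upper 3 are higher in both cachexia groups than in their PBS controls and the lower 3 are lower; at Prune1 the tumor groups of NC26 and MC38 are higher as well.

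A B3A copy 1150 kb from Sorcs3, a sorting receptor of neurons, fell in both models (chr19:49359682-49360082, intergenic). It had 34.6, 44, 32.2 and 47.8 scaled tags in C26 PBS and 5.81, 4.74, 3.89 and 4.11 in cachexia, while before cachexia 1 library was as high as PBS (19, 48, 19.7 and 14.2). The fall in cachexia was -2.91 on the log2 scale (SE 0.31, adjusted p = 4.6e-09). The 8025 libraries went from 13.7, 19.7 and 15.7 to 4.14, 3.63, 0.42 and 5.24 (log2 -2.21, SE 0.33, adjusted p = 7.3e-06). It was also higher in BALB/c than in C57BL/6N PBS mice (log2 1.17, SE 0.25, adjusted p = 0.00069).

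Slc39a14 encodes a zinc and iron transporter that inflammation induces in the liver. A B3 copy near it had 17.9, 23.3, 14.6 and 20.3 scaled tags in C26 PBS and 106, 66.0, 95.3 and 70.6 in cachexia, without overlap (log2 2.04, SE 0.28, adjusted p = 1.8e-06). It also passed in 8025 cachexia (log2 1.41, adjusted p = 0.0012). Other B2 family copies that fell in C26 cachexia lay near Usp42 (log2 -2.21, adjusted p = 9e-06) and Dym (log2 -1.96, adjusted p = 1.8e-06). A B3A copy near Lyplal1 passed in 8025 cachexia (log2 -2.93, SE 0.83, adjusted p = 0.018) although 1 of its PBS libraries was low: PBS had 24.3, 48.6 and 3.6 and cachexia 2.37, 0.97, 0.84 and 1.75. Leaving out PBS replicate 1 or 2 ended this call (adjusted p = 0.084 and 0.15), and its adjusted p over the alternatives was 0.0024 to 0.15.

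In the B4 family the largest rise among copies open to choice by the naming rule was, in both models, at an intronic ID_B1 copy 2.1 kb from the start of Lrrc75a (chr11:62645749-62646149, overlapping another region). It had 3.63, 1.91, 2.79 and 1.45 scaled tags in C26 PBS, 30.6, 10.2, 24.1 and 10.5 before cachexia, and 48.3, 46.7, 34.4 and 34.6 in cachexia. The groups did not overlap. The log2 rises were 2.35 before cachexia (SE 0.43, adjusted p = 0.0021) and 3.61 in cachexia (SE 0.43, adjusted p = 1.9e-07). In 8025 mice it went from 7.48, 7.05 and 3.09 to 44.1, 51.9, 52.6 and 53.8 (log2 2.92, SE 0.47, adjusted p = 3.2e-05). The C26 effect exceeded that of NC26 by 2.56 (adjusted p = 0.018) and the 8025 effect that of MC38 by 2.34 (adjusted p = 0.047). The first of these calls was lost with edgeR (adjusted p = 0.067, within 0.0026 to 0.067) and the second in 14 of 22 alternatives (0.0042 to 0.12).

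An RSINE1 copy in an intron of Gpc6, a cell-surface proteoglycan, lay 399 kb from its start (chr14:117324194-117324594). It had 28, 49.4, 34.7 and 39.1 scaled tags in C26 PBS, 22.2, 67.4, 7.3 and 23.8 before cachexia, and 2.64, 3.95, 11.7 and 2.74 in cachexia. The pre-cachexia libraries spread over the range of both other groups. It fell in C26 cachexia (log2 -2.88, SE 0.37, adjusted p = 1.4e-06) and in 8025 cachexia, from 48, 26.8 and 53.5 to 5.62, 9.69, 4.21 and 6.4 (log2 -2.58, SE 0.40, adjusted p = 3.2e-05). An intronic B4A copy of Camsap1, which binds microtubule ends, went from 17.1, 32.5, 27.2 and 20.3 in C26 PBS to 5.28, 4.74, 1.3 and 1.03 in cachexia (log2 -2.84, SE 0.31, adjusted p = 5.1e-09).

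Thrsp, a thyroid-hormone-responsive gene of fat synthesis, had a pair of RSINE1 copies that both fell in both models. The copy 6.05 kb away (chr7:97411295-97411695, intergenic, overlapping another region) had 43.3, 76.8, 23.2 and 61.2 scaled tags in C26 PBS and 5.28, 11.9, 4.86 and 4.46 in cachexia (log2 -2.81, SE 0.75, adjusted p = 0.012). In 8025 mice it had 70.7, 71.6 and 15.2 in PBS and 2.66, 4.85, 2.95 and 1.16 in cachexia (log2 -3.61, SE 0.81, adjusted p = 0.0035). The intronic copy 2.24 kb away (chr7:97415108-97415508) had 38, 47.2, 39.9 and 30.4 in C26 PBS and 14.5, 24.5, 17.2 and 9.26 in cachexia (log2 -1.31, SE 0.24, adjusted p = 0.00012). It had 42.7, 49 and 32.7 in 8025 PBS and 11.2, 8.48, 5.05 and 11.1 in cachexia (log2 -2.17, SE 0.26, adjusted p = 1.4e-07). An RSINE1 copy near Angptl8, a hormone that restrains lipoprotein lipase, fell in 8025 cachexia from 52.4, 74.0 and 39.1 to 5.03, 8.0, 7.58 and 10.8 (log2 -2.70, SE 0.50, adjusted p = 0.0004).

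A B4A copy differed between the cachexia models and between the strains. It lies 1.37 kb from Pus7, a pseudouridine synthase of RNA (chr5:23784883-23785283, intergenic). C26 PBS libraries had 32.9, 70.7, 55.1 and 40.6 scaled tags and cachexia libraries 7.39, 7.12, 4.86 and 3.43 (log2 -2.97, SE 0.27, adjusted p = 4.3e-11). In C57BL/6N mice it was nearly closed throughout: 8025 PBS had 3.74, 2.82 and 4.63 and cachexia 3.25, 2.42, 3.58 and 2.04. The C26 effect differed from the 8025 effect by -2.63 (SE 0.39, adjusted p = 0.00082) and from the NC26 effect by -2.63 (SE 0.38, adjusted p = 6.1e-05). BALB/c exceeded C57BL/6N PBS mice by 3.47 (SE 0.22, adjusted p = 1.8e-17).

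Few members differed in effect between C26 and 8025 cachexia: 5 passed (0.103% of all regions did, 0.0282% higher and 0.0745% lower), 1 with a higher and 4 with a lower effect in C26. Beside Pus7 these included copies near Cdh15 (-1.86, SE 0.37, adjusted p = 0.024), Iffo2 (-1.50, SE 0.31, adjusted p = 0.025) and Nrg4 (0.91, SE 0.20, adjusted p = 0.049). The Nrg4 call was lost in 16 of 22 alternatives (adjusted p of 0.022 to 0.27 over them all), and those at Cdh15 and Iffo2 in 10 each (0.011 to 0.11 and 0.0074 to 0.15), among them the replicate block and library totals alone. The Pus7 call was kept in all 22. Against the weight-stable tumor of the same strain, 84 members had a higher and 151 a lower effect in C26 than in NC26 (2.14% of all regions passed, 1.04% higher and 1.1% lower). For 8025 less MC38 these were 63 and 114 (1.7% of all regions, 0.922% higher and 0.779% lower). A B3 copy near F2rl2 (-1.95, SE 0.35, adjusted p = 0.00094) and a copy near Vgll4 (1.74, SE 0.38, adjusted p = 0.0079) were among those of C26 less NC26. A copy near Kctd13 (2.55, SE 0.54, adjusted p = 0.0066) was among those of 8025 less MC38.

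Before cachexia, C26 mice had 88 members higher and 40 lower than PBS (1.27% of all regions passed in this comparison, 0.97% higher and 0.296% lower). With library totals alone the split was 95 and 10. Beside the copies already named, a B1_Mus1 copy near Brwd3 rose before cachexia (log2 2.43, SE 0.32, adjusted p = 6.7e-06) and in cachexia (2.32, adjusted p = 6.4e-07). A B3 copy near Bbs9 rose before cachexia by 1.98 (SE 0.40, adjusted p = 0.0093), which ended without PBS replicate 1 (adjusted p = 0.053, within 0.00067 to 0.053 over its alternatives).

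Weight-stable tumors moved few SINE copies. NC26 mice had 11 members higher and 5 lower (0.186% of all regions passed, 0.146% higher and 0.0401% lower), or 10 and 1 with library totals alone. The RSINE1 copy near Rfx4 had 3.32, 5.6, 2.43 and 5.46 scaled tags in NC26 PBS and 25.9, 11.1, 10.8 and 21.6 with tumor (log2 1.68, SE 0.26, adjusted p = 0.00055). MC38 mice had 3 members higher and 0 lower (0.0186% of all regions passed, 0.0181% higher and 0.000564% lower), and 0 were lower with edgeR too. At an unadjusted p under 0.05, limma had 767 of 12589 members, 468 higher and 299 lower. Some members pass such an unadjusted threshold without any effect. The 3 were the Prune1 copy, a B4 copy nearest to Mir3099 and a B1_Mur1 copy nearest to Igf1. The Mir3099 copy had 4.41 to 10.1 in PBS and 18.9 to 22.4 with tumor, without overlap (log2 1.47, SE 0.27, adjusted p = 0.025). This call ended without PBS replicates 2 (adjusted p = 0.063) or 4 (0.15) or tumor replicates 1 (0.066), 2 (0.18) or 4 (0.075), within 0.016 to 0.18 over its alternatives. The Igf1 copy rose by 1.49 (SE 0.29, adjusted p = 0.038), a call that ended without PBS replicate 2 (adjusted p = 0.25) or tumor replicates 2 (0.28), 3 (0.1) or 4 (0.11), within 0.027 to 0.28 over its alternatives. Counting each cohort's cachexia or weight-stable comparison, 8 members were higher in at least 3 of the 4 cohorts, of 211 such regions in all: copies near Gm20110, Gm3143, Omp, Prune1, Rfx4, Slc38a3, Tha1 and Zfp831. Of these, 2 (Omp and Prune1) kept at least 3 calls under every alternative checked, which left out fits on the compared groups only. Copies near Ppa2 and Ppp2r5a were lower in 3, of 14 regions in all. Neither kept 3: the NC26 call at Ppp2r5a was lost in 12 of 15 alternatives (adjusted p of 0.044 to 0.35), and the 8025 call at Ppa2 when PBS replicate 1 (0.082), PBS replicate 2 (0.19), cachexia replicate 1 (0.058) or cachexia replicate 4 (0.084) was left out, within 0.011 to 0.19.

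SINE copies near genes of liver pathways followed different directions. A copy was counted if a listed gene was its nearest gene and its start lay within 100 kb. Of 14 copies near acute phase genes, whose secreted products rise in inflammation, 6 were higher and 0 lower in C26 cachexia, and again 6 and 0 in 8025 cachexia (median log2 0.83 and 1.13). All 375 regions near these genes gave 182 higher and 4 lower, and 155 and 5 (medians 0.73 and 0.63). Among the copies, an RSINE1 near Itih3 rose by 1.58 in 8025 cachexia (SE 0.31, adjusted p = 0.00027). Of 23 copies near targets of PPARα, the receptor that drives fatty acid oxidation in fasting, 0 were higher and 5 lower in C26 (near Acot1, Fgf21, Hadha and Plin2) and 0 and 7 in 8025 cachexia (among them copies near Acaa2, Acot1, Angptl4, Hadha and Plin2), and edgeR gave the same counts. At an unadjusted p under 0.05, limma had 2 higher and 10 lower in C26, and 0 and 8 in 8025 cachexia. Their median log2 differences were -0.51 and -0.38, against -0.09 and -0.18 for all 330 regions near these genes, of which 33 were higher and 58 lower in C26 and 11 and 51 in 8025 cachexia.

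Copies near genes of lipogenesis and glycolysis (22) gave 1 higher and 3 lower in C26 and 0 and 5 in 8025 cachexia. In C26 cachexia all 3 lower copies lay near the same gene, Thrsp, and the higher one near Acacb. In 8025 cachexia the lower copies lay near Mlxipl, Srebf1 and Thrsp. All 330 regions near the listed genes gave 12 and 45, and 5 and 94. Near urea cycle and amino acid genes, 6 of 30 copies were higher and 0 lower in C26 cachexia, near Arg1 (the arginase of the urea cycle) and Bhmt (which remethylates homocysteine). In 8025 cachexia 2 were higher and 2 lower. All 494 regions near these genes gave 72 and 13 in C26 and 33 and 19 in 8025 cachexia. A B4A copy near Bhmt rose by 2 in C26 cachexia (SE 0.42, adjusted p = 0.00073). An ID_B1 copy near Sgk1, a glucocorticoid-induced kinase, rose in both models: from 7.69, 7.65, 6.19 and 9.42 to 30.6, 24.1, 24.3 and 42.5 in C26 mice (log2 1.77, SE 0.30, adjusted p = 2.2e-05), and from 8.1, 4.23 and 11.3 to 24.8, 29.8, 28 and 35.2 in 8025 mice (log2 1.80, SE 0.32, adjusted p = 7.4e-05). The list it belongs to, gluconeogenesis and glucocorticoid response (46 copies), gave 3 higher and 5 lower in each model, and all 626 regions near its genes 96 and 33 in C26 and 75 and 46 in 8025 cachexia.

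The other lists had few calls. IL-6, STAT3 and NF-kB genes (37 copies) gave 2 higher and 1 lower in C26 and 2 and 3 in 8025 cachexia (all 534 regions near these genes 105 and 24, and 89 and 27). Clock genes (12) gave 1 and 0, and 2 and 0 (all 284 regions 38 and 26, and 19 and 47). Xenobiotic and bile acid genes (22) gave 1 and 3, and 2 and 4 (all 372 regions 22 and 23, and 11 and 28), with a PB1 copy near Cyp1a2, a cytochrome P450, lower in C26 cachexia (log2 -2.44, SE 0.39, adjusted p = 1.5e-05). Growth hormone and sex-biased genes (24) gave 0 and 1, and 0 and 3 (all 563 regions 26 and 81, and 12 and 76). Hepatocyte transcription factors (25) gave 0 and 1, and 0 and 2 (all 459 regions 25 and 32, and 21 and 52). The copy near Foxa3, a pioneer factor of liver, passed in both models (log2 -1.93, adjusted p = 0.0017, and -1.96, adjusted p = 0.0037). In the 8025 model this call ended without PBS replicate 2 (adjusted p = 0.056, within 0.00097 to 0.056 over its alternatives). With a weight-stable tumor, of 276 copies on the 12 lists 0 were called by limma or edgeR in either cohort. At an unadjusted p under 0.05, limma had 29 in NC26 and 21 in MC38 mice, against 1289 and 767 of all 12589 members. Of all regions, 0.186% and 0.0186% were called in these cohorts at the adjusted threshold.

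The genes that transcribe or silence SINEs were looked at through their own promoters and the copies near them. Of 7 copies near RNA polymerase III genes, 0 were called by limma or edgeR in either cachexia model, with 0 and 1 at an unadjusted p under 0.05. All 107 regions near these genes gave 1 higher and 8 lower in C26 and 2 and 5 in 8025 cachexia. Of 14 near SINE silencing and binding genes, copies near Atrx and Setdb1 were lower in C26 cachexia and the Atrx copy in 8025 cachexia (log2 -1.31, SE 0.29, adjusted p = 0.0016), while all 114 regions gave 10 higher and 7 lower, and 7 and 3. The C26 call at Atrx (-0.88, adjusted p = 0.022) was lost when PBS replicate 3 (0.08), PBS replicate 4 (0.082) or cachexia replicate 1 or 4 (0.055 each) was left out, within 0.017 to 0.082, and that at Setdb1 (-0.80, adjusted p = 0.045) in 9 of 15 alternatives (0.023 to 0.2). ATRX deposits histone H3.3 at repeats and SETDB1 methylates histone H3 at lysine 9. Among promoter regions of 20 polymerase III genes, Polr3a, which encodes the largest subunit, was lower in both models (log2 -0.51, SE 0.13, adjusted p = 0.0053, and -0.47, SE 0.14, adjusted p = 0.021). Polr3d was higher in C26 cachexia (0.34, SE 0.12, adjusted p = 0.042). The promoter of Maf1, the repressor of this polymerase, did not pass (0.25, adjusted p = 0.29, and 0.29, adjusted p = 0.26). Of 18 silencing and binding genes, the promoters of Chd4, Setdb1, Suv39h1 and Sirt6 were higher in C26 cachexia (log2 0.26 to 0.47), where 1772 of 21681 promoter regions were higher and 546 lower. In 8025 cachexia 0 passed with limma, with 3 at an unadjusted p under 0.05. RNA was not measured in these libraries, so an open or closed copy says nothing of its transcript.

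The strains differed at many SINE copies. Between BALB/c and C57BL/6N PBS mice (8 and 7 libraries, 2 cohorts each) 822 members were higher in BALB/c and 661 lower (11.8%, against 13.5% of all regions, 6.42% higher and 7.04% lower). The median log2 difference was 0.07, against 0.02 over all regions. With library totals alone, 605 were higher and 618 lower, so the order is not kept. Alu copies gave 253 and 165, B2 182 and 163, and B4 387 and 333. Of the subfamilies, B1_Mus2 (27 and 6, of 204 tested) and PB1D10 (35 and 13, of 426) had more copies higher in BALB/c than lower. B2_Mm2 (26 and 36, of 658) and RSINE1 (125 and 137, of 1830) had fewer. All regions gave 11381 and 12481, of 177251. These subfamilies were picked from a longer list, and their splits were not checked with library totals alone.

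Single copies were open in 1 strain and nearly closed in the other. A B1_Mur2 copy near Snx6, a sorting nexin, had 33.7, 54.8, 48.3 and 36.2 scaled tags in C26 PBS and 48.1, 42.7, 44.6 and 37.6 in NC26 PBS. The C57BL/6N controls had 3.12, 2.12 and 4.63 (8025) and 1.95, 1.76, 1.9 and 3.37 (MC38), a log2 difference of 3.91 (SE 0.24, adjusted p = 8.8e-18). A B1F2 copy near Cenpl, a kinetochore protein, had 0.85, 1.27, 1.86 and 1.45 in C26 PBS and 0, 1.4, 1.62 and 0 in NC26 PBS, against 63.0, 76.1 and 84.6 in 8025 PBS and 99.4, 64.3, 72.0 and 107 in MC38 PBS (log2 -5.20, SE 0.28, adjusted p = 5.8e-20). No library of one strain reached the range of the other at either copy.

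The same held for an ID_B1 copy near Prom1, a surface protein of progenitor cells, which had 15.6 to 24.3 in C26 PBS, 17.1 to 29 in NC26 PBS and 0 to 3.53 in the C57BL/6N controls (log2 3.87, SE 0.26, adjusted p = 2.5e-16). A B3A copy near Gch1, the first enzyme of tetrahydrobiopterin synthesis, had 0.43, 1.27, 0.62 and 0.72 in C26 PBS and 0.83, 0, 2.43 and 0.3 in NC26 PBS. In C57BL/6N controls it had 28.7, 43 and 47.1 (8025) and 58.2, 26.4, 38.5 and 43.4 (MC38), with a log2 difference of -4.57 (SE 0.29, adjusted p = 2.6e-17). An RSINE1 copy near Lrrc8d, a subunit of the volume-regulated anion channel, had 0.81 to 3.15 in the BALB/c controls and 54.6 to 100 in the C57BL/6N controls (log2 -4.68, SE 0.21, adjusted p = 6.7e-23). It overlaps another region.

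**Figure D5:**
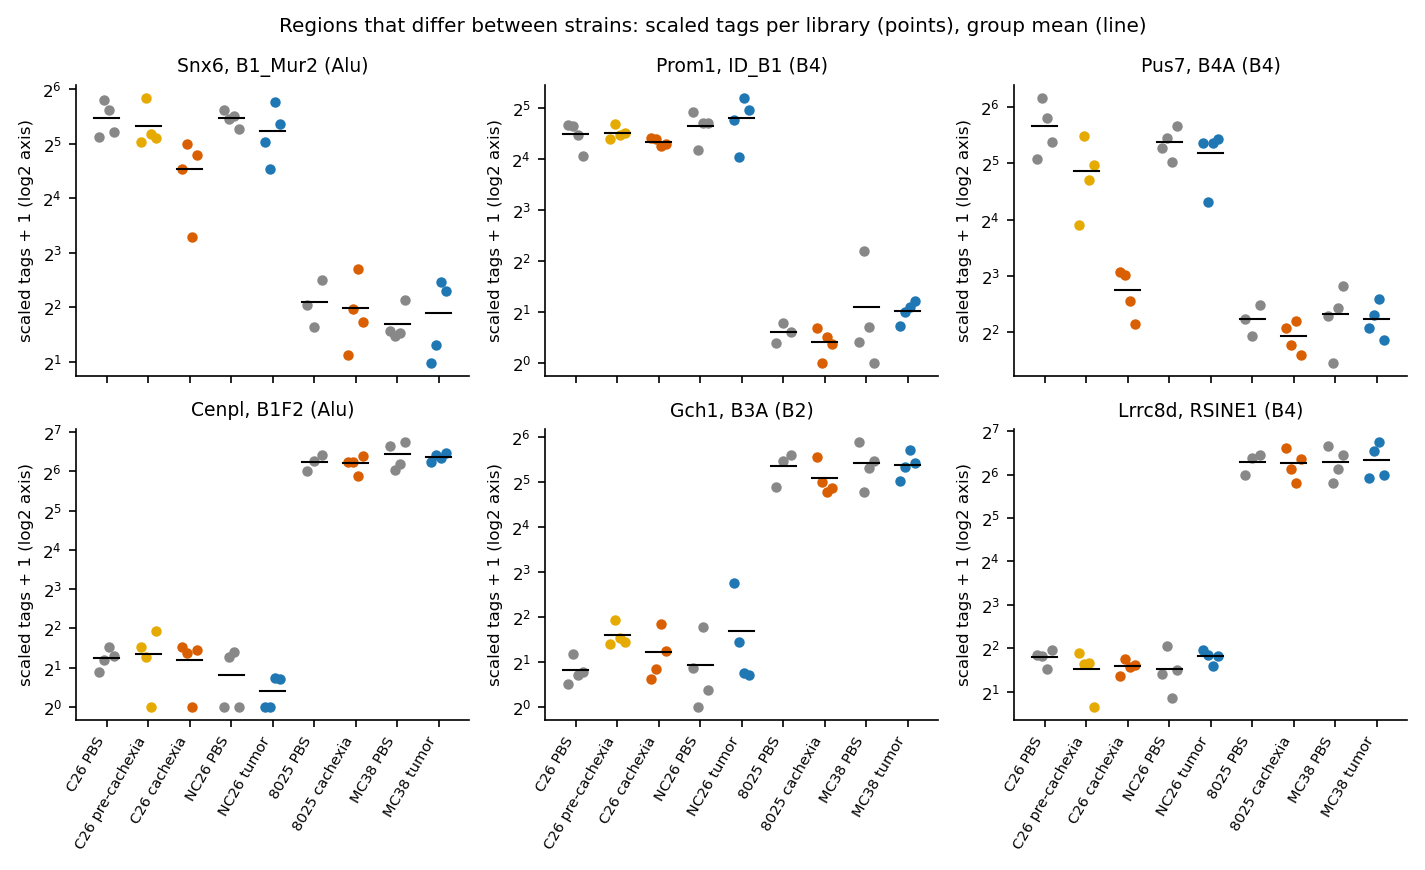
Scaled tags plus 1 on a log2 axis at 6 members that differ between strains, near Snx6, Prom1, Pus7, Cenpl, Gch1 and Lrrc8d, 1 point per library and a black line at the group mean, in the 9 groups. The upper 3 are higher in the BALB/c PBS groups (C26 and NC26) than in the C57BL/6N PBS groups (8025 and MC38) and the lower 3 are lower. At Pus7 the C26 cachexia libraries (3.43 to 7.39) reach down into the range of 8025 PBS (2.82 to 4.63).

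Complete loss of a copy's signal in a strain was rare. Not 1 read end was counted in any of the 8 BALB/c PBS libraries at 5 members (0.0396%, against 170 or 0.0956% of all regions). In the 7 C57BL/6N PBS libraries this held at 1 member (0.00791%, against 10 or 0.00562% of all regions). The reads of both strains were mapped to mm10, which is built from C57BL/6J. The part of sequence differences between the strains in these values was not tested.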

How the data were processed

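ATAC-seq libraries of bead-captured hepatocyte nuclei (25000 nuclei per reaction, 12 PCR cycles, per the labels' protocols) were mapped by the authors to mm10, and the submitters' processing notes name BWA 0.7.5a-r405, SAMtools and HOMER. Nothing in the sources used here says how duplicates and reads with several matches were treated. The deposited table gives a signal per region: tags in 400 bp, scaled to 10 M tags (M, 1e6) per library, per the file headers. Multiplying back by each library's total gave whole read ends (1 read end is 0.5 tag) for 100% of values within a tolerance of 0.05, so counts were recovered for an alternative test.

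The values were fitted with limma 3.58.1 in R 4.3.3 (trend, robust) as log2 of the TMM-corrected value (edgeR 4.0.16) plus a pseudocount of 1, over all 35 libraries with the library series as a covariate. Log2 differences are on this scale, which understates changes of weakly open regions. The edgeR filter for low values (minimum count 10, total 15) kept 177251 regions and removed 653. Adjusted p-values are Benjamini-Hochberg over all regions tested in a comparison, with 0.05 as the threshold, and each printed adjusted p is from limma unless another tool is named. The quasi-likelihood test of edgeR on the recovered counts called 1540 members in C26 cachexia and 1494 in 8025 cachexia. The variance between replicates of a group was 2.39 to 6.39 times that of counting single read ends, in 51 pairs. Both ends of a fragment can fall in the same region, which raises this ratio. It therefore cannot show whether a pair was a repeat of 1 library. The scripts were tested on simulated data. Tables and figures used Python 3.11.15, pandas 2.3.3, numpy 2.4.6 and matplotlib 3.10.9.

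Members and gene lists were chosen with earlier results of these data known. Named regions passed the threshold and had an average level at or above the members' median. Their nearest gene was no predicted gene or small RNA. For a comparison with PBS within a cohort, the libraries of the groups compared also did not overlap. Per repeat family, the 3 largest rises and falls were taken for each cachexia comparison and 1 of each for the others, with 1 region per gene, together with the 2 highest levels in PBS and the copy of lowest adjusted p on each list. Copies that are named because a count was small, the intronic Thrsp copy, the promoters of regulator genes and the printed sequences were chosen after their values were seen. Some copies that entered the counts are not reported here by name. Names are those of the nearest gene start, and they do not show which gene a region acts on. Alternatives were other scaling factors, no filter, a pseudocount of 4, edgeR, fits on the compared groups only, no series term, a replicate block, members without overlap, other denominators of the shares, and each library left out. For single copies, fits on the compared groups only were not checked.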

Additional observations from a re-analysis of the deposited data

Results flagged for a closer look

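At the named copies and in the shares of the SINE families, 177 groups of 4 libraries were looked at for a single library far from the other 3. In all, 15 had one, each at a named copy. Chance alone gives about 1 in 20 groups. Before C26 cachexia, the Ptpn21 B3 copy had 9.36 scaled tags in replicate 4 (others 17.6 to 18.9). In C26 PBS the Rhobtb1 ID_B1 copy had 0 in replicate 4 (6.5 to 7.69), the Cyp1a2 copy 22.3 in replicate 2 (10.2 to 11.8), the Car3 copy 32.5 in replicate 3 (4.48 to 8.6) and the Foxa3 copy 39.1 in replicate 4 (13.2 to 15.3). In C26 cachexia the Gpc6 copy had 11.7 in replicate 3 (2.64 to 3.95) and the Atrx copy 7.51 in replicate 2 (5.49 to 5.83). In 8025 cachexia, replicate 3 stood apart at Prdx1 with 71.2 (33.1 to 35.6) and at Wasf2 with 88.8 (18.9 to 29.1), and replicate 1 at Kctd13 with 39 (20.4 to 21.3). Among NC26 PBS libraries, Ppp2r5a had 59.2 in replicate 3 (72.4 to 73.1) and Rhobtb1 5.81 in replicate 1 (12.6 to 13.3), and with tumor Pus7 had 18.8 in replicate 2 (40.3 to 42). In MC38 PBS, Igf1 had 1.76 in replicate 2 (7.58 to 8.76) and Pebp4 11.4 in replicate 1 (3.09 to 4.42).

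The effect of cachexia differed from that of the weight-stable tumor, by limma's test of the difference, at copies near Lrig2 (2.11), Slc23a3 (-2.64), Vgll4 (1.74), F2rl2 (-1.95), Rhobtb1 (2.97) and Pus7 (-2.63) for C26 less NC26. For 8025 less MC38 these were Prdx1 (2.18), Pebp4 (-2.30), B3galt4 (1.82), Foxa3 (-2.36), Kctd13 (2.55) and Mup19 (-2.15). Mup19 belongs to a cluster of near-identical genes, so its value is uncertain. Each of these 2 comparisons shares its strain but not its library series in full. Of these, Foxa3 lost the call under 12 of 22 alternatives, Mup19 under 11, B3galt4 and Pebp4 under 5 each and Prdx1 under 3. Between the cachexia models the effect differed at copies near Nrg4 (0.91) and Pus7 (-2.63).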

How the results depend on the processing

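Of 131 results at named copies, 91 kept their direction and side of the threshold under every alternative checked, 40 lost the call under at least 1, and 0 reversed. Fits on the compared groups only were not checked at named copies. Fitting only the compared groups gave 216 members called before C26 cachexia, 2 in NC26 and 1 in MC38 mice, and 14 for C26 less 8025. Library totals alone gave 112 for C26 less NC26, 97 for 8025 less MC38 and 1 for C26 less 8025, and a pseudocount of 4 gave 18 for the last. edgeR gave 10 in NC26 mice. Members without overlap are fewer to start with, and gave 1013 in C26 cachexia, 817 in 8025 cachexia, 10 in NC26, 147 for C26 less NC26, 107 for 8025 less MC38, 2 for C26 less 8025 and 980 between strains. Sample numbers did not pair the libraries: same-numbered libraries had correlations of -0.155 to 0.0767 of their deviations, none above 0.1. The replicate block gave 129 members before C26 cachexia, 1489 in C26 cachexia, 956 in 8025 cachexia, 15 in NC26, 3 in MC38 and 209 for C26 less NC26. It gave 102 for 8025 less MC38 and 1 for C26 less 8025. It could not be fitted for the strain comparison, whose libraries share no cohort. With all tags of the library as the denominator, the changes in share were 6.46% (before C26 cachexia), -0.941% (C26 cachexia) and 8.4% (NC26) over all members, 3.76%, -2.7% and 6.1% for Alu, 3.41%, -4.35% and 8.42% for B2, and 9.47%, 1.72% and 9.68% for B4, with 0.472% for B4 in 8025 cachexia. As shares of tags in regions they were -1.37%, -6.97% and -0.375%, then -3.72%, -8.63% and -2.63%, then -4.33%, -10.3% and -0.1%, then 1.41%, -4.39% and 0.751%, with -3.02%. The cause of these moves was not tested.

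Leaving out 1 library at a time gave 1167 to 1380 members in C26 cachexia and 1237 to 1479 between strains. It gave 48 to 140 before C26 cachexia, where 6 libraries moved the count by more than 1.5 times: PBS replicates 1 (49), 2 (85) and 3 (65) and pre-cachexia replicates 1 (48), 2 (76) and 4 (79). The range was 753 to 1119 in 8025 cachexia, with 753 without PBS replicate 2. In NC26 it was 8 to 78: PBS replicate 4 (9) and tumor replicates 1 (8), 2 (78) and 3 (28). In MC38 it was 1 to 5: PBS replicate 3 (5) and tumor replicates 2 (1) and 4 (1). C26 less NC26 gave 122 to 277, with C26 cachexia replicates 3 (152) and 4 (122), C26 PBS replicate 4 (147), NC26 PBS replicate 1 (132) and NC26 tumor replicate 3 (149) below. For 8025 less MC38 it was 46 to 225: 8025 PBS replicates 1 (91) and 2 (46), 8025 cachexia replicate 3 (116), MC38 PBS replicate 3 (108) and MC38 tumor replicates 2 (110) and 3 (80). For C26 less 8025 it was 1 to 14, moved by 13 of 15 libraries, 14 being without 8025 cachexia replicate 1. Depth limits most the 4204 members with a mean under 5 scaled tags, of which 59 were higher and 151 lower in C26 cachexia. The 3.47 M tags of NC26 tumor replicate 1 make its values the least precise.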
